A study of Oryza sativa with 6 samples.

Results

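The genes described here encode parts of photosystem I and photosystem II, the pigment-protein complexes of the thylakoid membrane in which light drives electron transport. They are the 6 rows, of 2995 in the deposited table of leaf RNA-seq values, whose Swiss-Prot description names photosystem I or photosystem II and does not name a chlorophyll a-b binding protein. By the gene symbols in that description they are PsaK (LOC4342404, Os07g0148900), PsaG (LOC4347395, Os09g0481200, described as photosystem I subunit V), PsaN (LOC4351694, Os12g0189400), Lhca5 (LOC4330828, Os02g0764500), PsbS2 (LOC4337500, Os04g0690800, the 22 kDa protein of photosystem II) and PsbR (LOC4342395, Os07g0147500, the 10 kDa polypeptide of photosystem II). The wording of the rule sets the membership. Lhca5 is itself an antenna protein and entered because its description reads photosystem I chlorophyll a/b-binding protein. The Swiss-Prot matches of PsaK, PsaG, PsaN and PsbR are barley proteins and that of Lhca5 is an Arabidopsis protein, whereas PsbS2 matched a rice protein.

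Leaves of 2 rice lines were compared to find genes whose expression depends on the edit while light fluctuated and water was short (fluctuating light with drought stress, FL-DS). PIF4v3m (3 libraries) is the label of the edited line, taken here to be the study's single line in which CRISPR/Cas9 deleted 1 nucleotide, the v3 SNP, in the promoter of the phytochrome-interacting factor gene OsPIL13. WYG7 (3 libraries) is the unedited parent, the cultivar Wuyungeng 7. By the paper both lines were grown in pots under FL-DS. The labels give an age of 3 weeks for the plants whose leaves were taken, which is earlier than the start of FL-DS in the methods of the paper. Whether these leaves had been under FL-DS, and for how long, is therefore not settled. The edited line is a single line, and no separate unstressed group is included. The labels do not say whether a library came from 1 plant or several, so the tests measure the spread between these libraries. No time of leaf collection is given, so a difference between the lines cannot be told apart from a difference in collection time.

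The values are FPKM, fragment counts scaled for gene length and for the number of mapped fragments, so levels of different genes can be set side by side. Every row of the table had been called by the authors as differing between the lines. A gene with no row was not analysed here, and whether it differed cannot be read from the table, which also carries no read depth. Differences were tested with limma on log2(FPKM + 1) over all 2995 rows, with Benjamini-Hochberg adjustment and a threshold of 0.05. Because these rows had been selected for differing in the same libraries, a low adjusted p was close to fixed in advance. The adjusted p-values given below therefore do not measure false discovery among all genes and are no independent evidence of a difference. A log2 fold change on this scale understates the change of genes near 0 FPKM. OsPIL13 itself could not be followed. The rows described as PHYTOCHROME INTERACTING FACTOR-LIKE 13, LOC4342383 and LOC4352761, lie on chromosomes 7 and 12 of the RefSeq assembly, whereas the study places OsPIL13 on chromosome 3. Of the leaf mesophyll markers, 7 rows were listed, 3 called higher and 4 called lower (45.8% of all tested genes were called higher and 54.1% lower). Their summed level was 11033 to 13816 FPKM in PIF4v3m and 15388 to 16098 FPKM in WYG7, with 0 of them at 0 in all libraries. The lower rows were the chlorophyll a-b binding proteins also described below and alpha carbonic anhydrase 1. Higher rows were the ribulose bisphosphate carboxylase small chain (mean 2850 FPKM in PIF4v3m, 1104 FPKM in WYG7) and the activase rows of that enzyme. The markers thus moved in both directions, and the lower sum is not a drop of all of them. All 10 rows matched by the word list for dividing cells were called higher in PIF4v3m, beside the same 45.8% (sum 51.5 to 55.4 FPKM, against 17.2 to 21.8 FPKM in WYG7). They were rows described as kinesin-like proteins or histones H3.2 and H4, and no cyclin-B or proliferating cell nuclear antigen row was listed. The kinesin-like rows were matched by that word alone and need not all mark dividing cells, so the sum is not a measure of cell division. KIN-12C, KIN-8B, KIN-12E and KIN-13B were near the floor, at means of 0.370 to 0.659 FPKM in PIF4v3m. The part of these marker differences in the results below was not tested. In bulk leaf RNA, fewer cells of a type and less RNA per cell cannot be told apart.

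Photosystem II splits water on the lumenal side of the thylakoid and passes electrons through plastoquinone, the cytochrome b6f complex and plastocyanin to photosystem I, which reduces ferredoxin. The reaction centre cores of both complexes are encoded in the chloroplast genome, while the smaller peripheral subunits and the antenna proteins are encoded in the nucleus and imported. All 6 genes are nuclear. Of the 19 psa and psb genes that RefSeq places on the rice plastid genome, 0 have a row in the table under their symbol, so the core subunits were not analysed here.

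In PIF4v3m leaves all 4 photosystem I genes were higher than in WYG7, by 2.03-fold to 2.49-fold, and both photosystem II genes were lower, PsbS2 by 7.17-fold and PsbR by 88.0-fold. The 4 higher genes stand against 45.8% of all tested genes called higher, and the 2 lower genes against 54.1% called lower. The 3 PIF4v3m values lay apart from the 3 WYG7 values for each of the 6 genes, as they did for 99.4% of all rows, so neither the calls nor the separation sets these genes apart. An exact two-sided permutation test gave p = 0.1 for each, the smallest that 3 libraries against 3 allow. The members' median log2 fold change was 1.02 and that of all tested genes was -0.56. Both come from called genes only, so each depends on the split between higher and lower rows. With 0.01 in place of 1 added to FPKM the all-gene median was -1.127, so the distance between the medians is not a tested contrast.

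**Figure D1:**
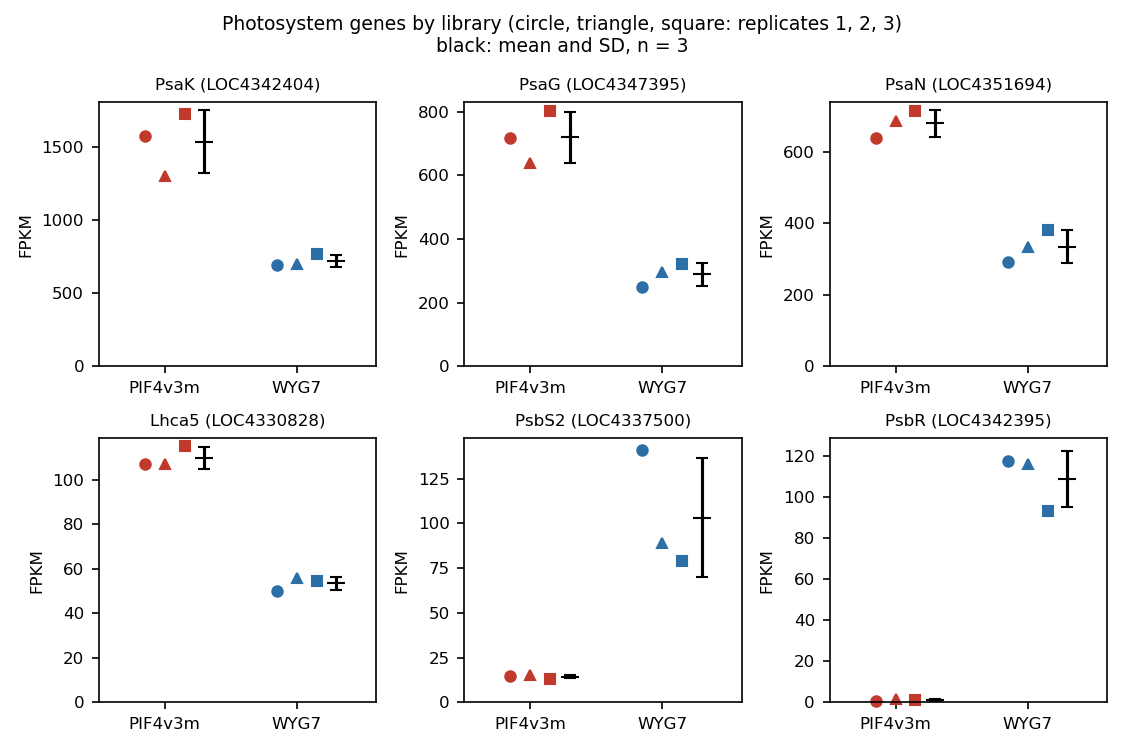
FPKM of the 6 photosystem genes in each library, with PIF4v3m (red) left of WYG7 (blue), 1 symbol per replicate and the mean with its SD (n = 3) in black, each panel on its own axis from 0. PsaK, PsaG, PsaN and Lhca5 stand higher in all PIF4v3m libraries, and PsbS2 and PsbR stand lower, PsbR at 0.912 to 1.54 FPKM.

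PsaK and PsaG are small, related membrane proteins on the rim of the photosystem I core, where PsaG faces the belt of Lhca antenna proteins and PsaK lies near the docking side of light-harvesting complex II. PsaK had 1577, 1306 and 1733 FPKM in PIF4v3m replicates 1, 2 and 3, against 694, 701 and 768 FPKM in WYG7. The lowest PIF4v3m library thus lay well above the highest WYG7 library. The means were 1539 ± 216 FPKM in PIF4v3m and 721 ± 40.8 FPKM in WYG7 (SD, n = 3), a log2 fold change of 1.08 with a standard error of 0.13 (adjusted p = 8.92e-05, limma). With quantile normalization over the listed genes the log2 fold change of PsaK was 1.82. PsaK was the most abundant of the 6 genes, 4th of all rows by mean FPKM in PIF4v3m and 12th in WYG7.

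PsaG had 717, 639 and 801 FPKM in PIF4v3m and 250, 296 and 322 FPKM in WYG7. The means were 719 ± 81.1 FPKM in PIF4v3m and 289 ± 36.4 FPKM in WYG7 (SD, n = 3), a difference of 1.31 on the log2 scale (standard error 0.13, adjusted p = 3.02e-05, limma). This was the largest fold change among the photosystem I genes on the deposited scale, but not with quantile normalization, which gave 1.66 for PsaG and 1.82 for PsaK on the log2 scale. In the RefSeq annotation PsaG overlaps LOC4347394 and LOC4347396, and no strand setting is given for the authors' counting, so reads of these genes may be shared and the level of PsaG is uncertain to that extent. Neither of these overlapping genes has a row in the table.

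PsaN is the photosystem I subunit on the lumenal side, and in Arabidopsis it is needed for efficient electron transfer from plastocyanin. PsaN had 639, 684 and 713 FPKM in PIF4v3m, against 290, 333 and 381 FPKM in WYG7. With means of 678 ± 37.1 FPKM in PIF4v3m and 335 ± 45.1 FPKM in WYG7 (SD, n = 3), its log2 fold change was 1.02 (standard error 0.12, limma adjusted p = 7.20e-05). PsaN ranked 11th of all rows by mean FPKM in PIF4v3m and 29th in WYG7.

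Lhca5 is a scarce antenna protein of photosystem I that in Arabidopsis helps to attach photosystem I to the chloroplast NADH dehydrogenase-like (NDH) complex. Its FPKM was 107, 107 and 115 in PIF4v3m and 50.1, 56.0 and 54.4 in WYG7. The replicates of each line lay close together, at 110 ± 4.79 FPKM in PIF4v3m and 53.5 ± 3.03 FPKM in WYG7 (SD, n = 3), and differed by 1.02 on the log2 scale (standard error 0.09, adjusted p = 1.19e-05, limma). Lhca5 stayed the least abundant of the 4 photosystem I genes, at 3.43% to 3.91% of their summed FPKM in PIF4v3m and 3.57% to 4.04% in WYG7.

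The increases of PsaN, Lhca5 and PsaK were among the smaller ones of the table, and that of PsaG was nearer the middle. By the ratio of mean FPKM, 82 of the 1375 genes with a higher mean in PIF4v3m had a smaller ratio than PsaN (2.03), 115 a smaller ratio than Lhca5 (2.05), 192 a smaller ratio than PsaK (2.13) and 517 a smaller ratio than PsaG (2.49). The smallest absolute log2 ratio of means of any row was 0.683, so smaller changes are absent and these ranks hold among the listed genes only. Photosystem I genes with no row, which may include genes that changed less, were not analysed here.

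**Figure D2:**
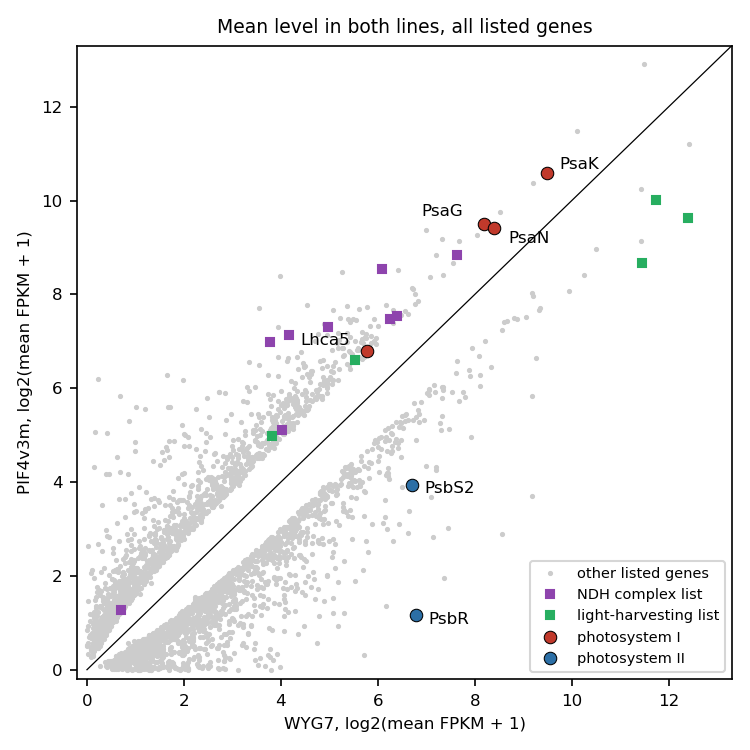
Mean FPKM of all 2995 listed genes on the log2(FPKM + 1) scale, WYG7 on the x axis and PIF4v3m on the y axis, with the line of equal levels. The table holds called genes only, and the band along the line is empty. PsaK, PsaG, PsaN and Lhca5 (red) lie in the upper cloud at high levels, PsaG farther from its inner edge than the other 3, and PsbS2 and PsbR (blue) lie far below the line.

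Within a library, the proportions among PsaK, PsaN and Lhca5 overlapped between the lines, and those with PsaG did not. The ratio of PsaK to PsaN was 1.91 to 2.47 in PIF4v3m and 2.02 to 2.39 in WYG7, that of PsaK to Lhca5 was 12.2 to 15.03 in PIF4v3m and 12.5 to 14.1 in WYG7, and that of PsaN to Lhca5 was 5.97 to 6.40 in PIF4v3m and 5.79 to 7.0 in WYG7, with overlap in each case. PsaG took 23.4% to 23.8% of the summed photosystem I FPKM in PIF4v3m and 19.4% to 21.3% in WYG7. PsaK was 2.04 to 2.2 times PsaG in PIF4v3m and 2.37 to 2.78 times PsaG in WYG7, and PsaG was 0.934 to 1.12 times PsaN in PIF4v3m and 0.845 to 0.887 times PsaN in WYG7. The ratio of PsaG to Lhca5 also lay apart, at 5.98 to 6.95 in PIF4v3m and 4.98 to 5.92 in WYG7. Of the 6 pairs compared, these 3 with PsaG had an exact permutation p of 0.1 (adjusted p = 0.2 over the 6 pairs), and the other pairs had adjusted p of 0.9 to 1, so no difference in fold change among the photosystem I genes passed the threshold, and with 3 libraries a line none could have.

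PsbS senses the low pH of the thylakoid lumen in strong light and switches on the rapid dissipation of absorbed energy as heat (non-photochemical quenching). PsbS2 had 14.7, 15.1 and 13.3 FPKM in PIF4v3m, against 141, 89.1 and 79.2 FPKM in WYG7. The PIF4v3m libraries agreed closely, whereas WYG7 replicate 1 stood well above the other WYG7 libraries. The means were 14.4 ± 0.981 FPKM in PIF4v3m and 103 ± 33.3 FPKM in WYG7 (SD, n = 3), 7.17-fold lower in PIF4v3m, or -2.71 on the log2 scale (standard error 0.20, adjusted p = 6.62e-06, limma). Without WYG7 replicate 1 the log2 fold change was -2.47 (standard error 0.10, limma adjusted p = 2.01e-06). The table has 0 rows described with the symbol PSBS1, so the other rice PsbS gene was not analysed here.

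PsbR is a small protein of the photosystem II lumenal side that in Arabidopsis stabilises the binding of the oxygen-evolving proteins PsbP and PsbQ. Its FPKM was 0.912, 1.54 and 1.26 in PIF4v3m and 117, 116 and 93.2 in WYG7. PsbR was thus near 1 FPKM in every PIF4v3m library and at 93.2 FPKM or more in every WYG7 library. This is the only row with that description, so any other PsbR gene of rice was not analysed here. With means of 1.24 ± 0.316 FPKM in PIF4v3m and 109 ± 13.6 FPKM in WYG7 (SD, n = 3), the ratio of the means was 88.0 and the log2 fold change -5.62 (standard error 0.14, limma adjusted p = 9.35e-08). Of the 1620 genes with a lower mean in PIF4v3m, 41 had a larger ratio of means than PsbR and 301 a larger one than PsbS2. These ratios carry no offset, so rows at or near 0 FPKM in PIF4v3m count among the larger ones even where their WYG7 level was low. By mean FPKM PsbR ranked 2046th of all rows in PIF4v3m and 84th in WYG7, and PsbS2 ranked 658th in PIF4v3m and 91st in WYG7. In WYG7 the levels of these genes were alike, with PsbS2 at 0.768 to 1.20 times PsbR, whereas in PIF4v3m PsbS2 was 9.82 to 16.2 times PsbR.

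Set against each other within a library, the summed FPKM of the 4 photosystem I genes was 2736 to 3362 in PIF4v3m and 1284 to 1524 in WYG7, and that of PsbS2 and PsbR was 14.5 to 16.7 in PIF4v3m and 172 to 258 in WYG7. The ratio of the photosystem I sum to the photosystem II sum was 194, 164 and 231 in PIF4v3m replicates 1, 2 and 3, and 4.97, 6.76 and 8.85 in WYG7 replicates 1, 2 and 3. This ratio describes the 6 listed genes, not the amounts of the complexes. WYG7 replicate 1 was the lowest WYG7 library for each of the photosystem I genes and the highest for both photosystem II genes, and it had the lowest limma library weight (0.459, against 0.958 to 1.53 for the others). In PIF4v3m, replicate 3 was the highest library for all 4 photosystem I genes, and replicate 2 was the lowest for PsaK and PsaG, whereas replicate 1 was the lowest for PsaN.

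**Figure D3:**
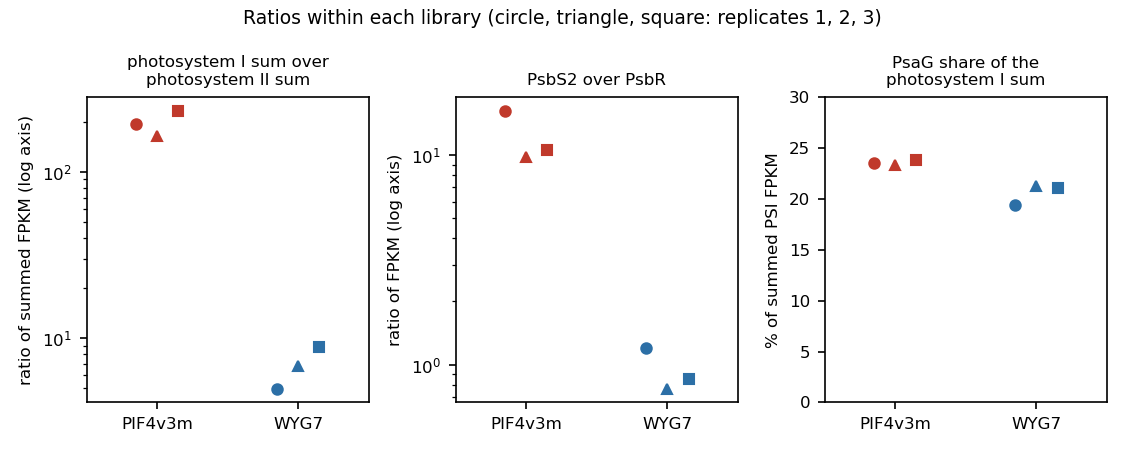
Ratios computed within each library, PIF4v3m (red) left of WYG7 (blue), 1 symbol per replicate: summed FPKM of PsaK, PsaG, PsaN and Lhca5 over that of PsbS2 and PsbR (log axis), PsbS2 over PsbR (log axis), and PsaG as a percentage of the photosystem I sum. The first ratio is 164 to 231 in PIF4v3m and 4.97 to 8.85 in WYG7.

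PsbR and PsaK, which moved in opposite directions, lie close together on chromosome 7 in the RefSeq gene order. Between them 11 genes are annotated, 8 of them protein-coding, and 0 of these have a row in the table. Among the 5 protein-coding neighbours on each side, PsbR, PsaK, PsaG and PsbS2 had 0 listed genes, Lhca5 had 1 and PsaN had 2. The share of all RefSeq protein-coding genes with a row was not computed, so these counts cannot be read as particular to the members. LOC4351693, 1 of the 2 listed neighbours of PsaN, was singled out after its values were seen. It is described as a chloroplast carboxyvinyl-carboxyphosphonate phosphorylmutase and had 334, 316 and 355 FPKM in PIF4v3m, against 15.5, 15.5 and 13.5 FPKM in WYG7 (log2 fold change 4.41, standard error 0.09, limma adjusted p = 6.73e-08).

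Other genes of the thylakoid were taken from 9 lists of descriptions, of which 8 had at least 1 row. In the light-harvesting list 3 rows were lower and 2 were higher, with a median log2 fold change of -1.74, beside 54.1% lower and 45.8% higher and a median of -0.56 over all tested genes. The lower rows were all chlorophyll a-b binding proteins, which capture light mainly for photosystem II. Chlorophyll a-b binding protein 1 (LOC4346803) had 820, 649 and 904 FPKM in PIF4v3m, against 5838, 5349 and 4954 FPKM in WYG7, 6.80-fold lower by the means (log2 fold change -2.77, limma adjusted p = 2.27e-06). Chlorophyll a-b binding protein 2 (LOC4324599) was 6.89-fold lower and the minor antenna protein CP29.1 (LOC4343583) was 3.32-fold lower in PIF4v3m. The higher rows were the light-harvesting complex-like proteins OHP1 (LOC4352215) and LHC-like 3 isotype 2 (LOC4328151), at 2.34 and 2.15 times the WYG7 mean, which in Arabidopsis take part in photosystem II assembly and in chlorophyll synthesis.

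The NDH complex moves electrons from ferredoxin back to plastoquinone and works in a supercomplex with photosystem I. All 9 listed rows of this list were called higher in PIF4v3m, with a median log2 fold change of 1.21 and a range of 0.56 to 3.23, beside the 45.8% of all tested genes called higher. The smallest value belongs to a new gene of the authors described as subunit H, a protein that is normally encoded in the plastid genome, at 1.16 to 1.72 FPKM in PIF4v3m and 0.495 to 0.716 FPKM in WYG7, so its reads may come from a near-identical copy. Photosynthetic NDH subunit of subcomplex B 1 (LOC4345153) had 139, 109 and 131 FPKM in PIF4v3m, against 12.8, 10.7 and 14.4 FPKM in WYG7, a ratio of means of 10.0. Photosynthetic NDH subunit of lumenal location 1 (LOC9267250) had 144, 133 and 141 FPKM in PIF4v3m, against 14.0, 17.2 and 19.9 FPKM in WYG7, a ratio of 8.18. The 9 rows summed to 1524 to 1722 FPKM in PIF4v3m and 478 to 536 FPKM in WYG7. Lhca5, at 107 to 115 FPKM in PIF4v3m and 50.1 to 56.0 FPKM in WYG7, had a smaller ratio of means (2.05) than each of these 9 rows, whose ratios ran from 2.18 to 10.0.

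**Figure D4:**
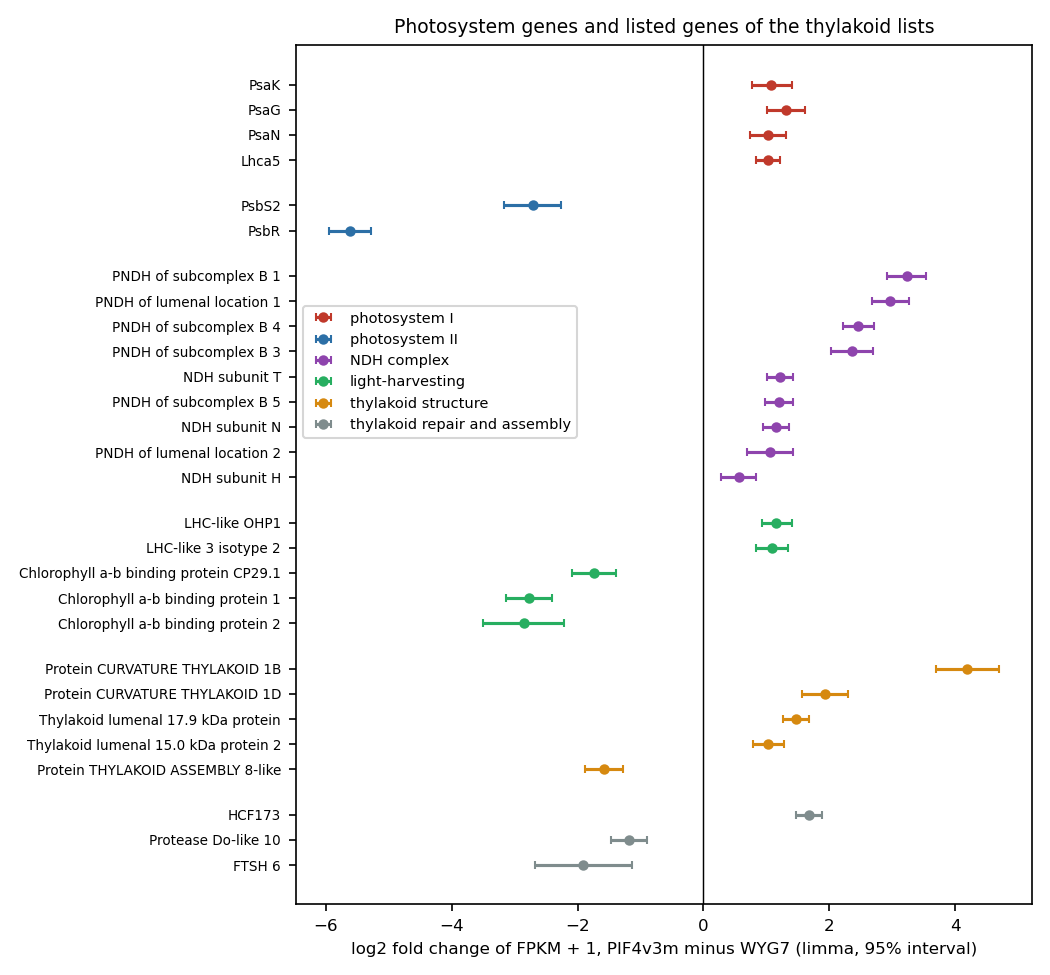
Log2 fold change of FPKM + 1, PIF4v3m minus WYG7, with the 95% interval from limma, for the 6 photosystem genes and the listed genes of 4 thylakoid lists. PNDH stands for photosynthetic NDH subunit. The photosystem I genes lie at 1.02 to 1.31, PsbS2 and PsbR at -2.71 and -5.62, and all 9 NDH rows are above 0.

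Of the thylakoid structure list, 4 rows were higher and 1 was lower, beside 45.8% higher and 54.1% lower among all tested genes. CURVATURE THYLAKOID 1B (LOC4349239), which bends the membrane at the grana margins, had 243, 183 and 196 FPKM in PIF4v3m, against 9.83, 7.53 and 14.7 FPKM in WYG7, and CURVATURE THYLAKOID 1D (LOC4340498) was 6.64-fold higher. The lower row, THYLAKOID ASSEMBLY 8-like (LOC4343537), was 3.89-fold lower in PIF4v3m. Of the repair and assembly list, 1 row was higher and 2 were lower, beside the same shares. HIGH CHLOROPHYLL FLUORESCENCE PHENOTYPE 173 (LOC4341998), which in Arabidopsis is needed to translate the D1 core protein of photosystem II, had 116, 116 and 113 FPKM in PIF4v3m, against 33.3, 38.8 and 34.2 FPKM in WYG7, so its direction was opposite to that of PsbS2 and PsbR. The chloroplast protease FTSH 6 (LOC4340563) was listed at 0, 0.0545 and 0 FPKM in PIF4v3m and at 1.38, 5.91 and 2.39 FPKM in WYG7, and Protease Do-like 10, described as mitochondrial, was 2.84-fold lower.

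The remaining lists held 1 row each or none. PsbP domain-containing protein 7 (LOC4326784) was the only row of the oxygen-evolving list, at 4.11 to 5.94 FPKM in PIF4v3m and 2.21 to 2.59 FPKM in WYG7. Ferredoxin-3 (LOC4335779), an electron carrier, was at 14.0 to 18.1 FPKM in PIF4v3m and 4.19 to 5.58 FPKM in WYG7. A row described as ATP synthase subunit alpha (LOC107279124), a protein of the plastid genome that RefSeq here places on chromosome 10, was at 25.4 to 56.2 FPKM in PIF4v3m and 17.4 to 20.5 FPKM in WYG7, and its reads may likewise belong to another copy. Protochlorophyllide reductase A (LOC4337415), of chlorophyll synthesis, was lower in PIF4v3m at 15.8 to 25.1 FPKM, against 33.7 to 66.3 FPKM in WYG7. The cytochrome b6f list had 0 rows. Genes of these complexes with no row were not analysed here.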

How the data were processed

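Leaf RNA of 3 PIF4v3m and 3 WYG7 libraries was analysed. The deposited FPKM values per gene and library were made by the authors. The paper gives STAR and Cufflinks. Other tools (StringTie 1.3.0, HISAT2 2.0, Bowtie 0.12.2) and a mouse build (mm8) stand in the processing notes of the submitters, so the tools behind the FPKM are not settled and no coordinates are given. The deposited log2 fold change and the deposited adjusted p-value (FDR, under 0.01 in every row) are the authors' own comparison and were not used. The deposited table carries no read depth. The supplement of the paper lists reads per library, which were not used, so no depth enters the tests.

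FPKM was compared as log2(FPKM + 1) in R 4.3.3 by two-sided limma 3.58.1 tests with a trended prior variance and without covariates, for genes with a mean above 0.01 FPKM, which removed 0 of 2995. A gene was called where the p adjusted by Benjamini-Hochberg was under 0.05. The code was first tested on simulated data. All 6 members are named. They and the lists were chosen with earlier results of these data known. The lists were matched to Swiss-Prot descriptions, and names and gene order come from RefSeq (assembly ASM3414082v1), which 2747 IDs matched. Alternatives were pseudocounts of 0.1 and 0.01, no filter and a mean above 1 FPKM, rescaling, quantile normalization, no trend, library weights, a replicate block, each library left out, an adjusted p under 0.01, and members matched by the NR description too. Tables and figures used Python 3.11.15, pandas 2.3.3, scipy 1.17.1 and matplotlib 3.10.9.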

Additional observations from a re-analysis of the deposited data

How the results depend on the processing

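For the 6 photosystem genes, 96 of 96 values under 16 alternatives kept their direction and an adjusted p under the threshold (highest limma adjusted p 0.000711). This was close to fixed in advance, since the authors had listed these genes for differing in the same libraries. With 4 genes higher and 2 lower in each, the counts did not move, except that matching the NR description as well gave 5 higher. Without single libraries the members' median log2 fold change was 0.95 to 1.08, PsbS2 -2.88 to -2.47 and PsbR -5.73 to -5.51. Rescaling each library to the same summed FPKM gave a median of 1.18, and it changes the weight of the offset as well as the scaling. Quantile normalization gave 1.82 for PsaK and 0.70 for Lhca5, so the near-equal fold changes of the photosystem I genes depend on the scaling. Both scalings rest on called genes, and the all-gene median shifted by -0.393 with rescaling and 0.227 with quantile normalization. It shifted further with pseudocounts of 0.1 (by -0.526, to -1.082) and 0.01 (by -0.571, to -1.127), where the members' median was 1.03. Libraries of the 2 lines with the same number had deviations correlated at -0.0681, 0.00296 and -0.0969, which gives no sign of pairing. With the replicate block, 1372 genes were higher and 1618 lower, and PsbR had -5.62 with an adjusted p of 2.12e-05 in limma.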

Other observations

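Some rows tied to photosystem I or to electron flow around it fell outside both the rule and the lists, and the 3 given here were chosen after their values were seen. A row with no Swiss-Prot match (LOC9266978), described in the NR column as PHOTOSYSTEM I ASSEMBLY 2, a photosystem I assembly factor, had 136, 145 and 153 FPKM in PIF4v3m, against 36.4, 41.5 and 43.3 FPKM in WYG7 (log2 fold change 1.82, standard error 0.10, limma adjusted p = 1.84e-06). PROTON GRADIENT REGULATION 5 (LOC4346358), which in Arabidopsis is needed for the main route of cyclic electron flow around photosystem I, had 202, 185 and 217 FPKM in PIF4v3m, against 78.3, 83.4 and 75.4 FPKM in WYG7 (log2 fold change 1.34, standard error 0.09, limma adjusted p = 5.64e-06). TIC 62 (LOC4347935), a chloroplast protein that in Arabidopsis tethers ferredoxin-NADP reductase to the thylakoid, had 95.8, 67.6 and 72.2 FPKM in PIF4v3m, against 21.5, 20.6 and 28.9 FPKM in WYG7 (log2 fold change 1.69, standard error 0.17, limma adjusted p = 2.83e-05). In each of these rows the 3 PIF4v3m values lay above the 3 WYG7 values, as the lines lay apart in 99.4% of all rows. Among all tested genes 45.8% were called higher. Rows of this kind that were lower were not counted, so these 3 do not show a common direction.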
